A study of Mus musculus with 6 samples.

Results

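The genes described here mark Langerhans cells, macrophages and other myeloid cells in the epidermis of newborn mice. They are 33 of the 41214 genes in the deposited count tables and were taken by gene symbol from a list of such markers, whatever their counts. RNA was sequenced from trypsin-treated skin of C57BL/6 mice at postnatal day 4, in 3 libraries labelled ARPC4 ko and 3 labelled wt. ARPC4 is a subunit of the Arp2/3 complex, which starts new branches on actin filaments. The series title places the knockout in the epidermis and calls the disease psoriasis-like, and the labels name neither a promoter or Cre line nor the deleted part of the gene.

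Langerhans cells are the antigen-presenting cells of the epidermis. They settle among the keratinocytes before birth, carry the lectin langerin (Cd207) and acquire MHC class II after birth. MHC class II molecules present peptides from engulfed proteins to CD4+ T cells, and the coactivator CIITA switches their genes on through the factors RFX and NF-Y. Langerhans cells and macrophages both depend on the receptor CSF1R, which has the ligands CSF1 and IL-34. Keratinocytes make IL-34, and Langerhans cells of mice need it to persist. The 33 genes were ordered by role into 4 Langerhans genes, 8 of MHC class II presentation, 3 of the CSF1R axis, 10 of macrophages, 5 shared by myeloid cells and 3 of granulocytes and mast cells. None of these roles is exclusive, since keratinocytes make Epcam and Il34 and many cells make Mfge8.

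Of the 33 genes, 23 had a promoter window in the RefSeq table of GRCm38.p6, each running from 250 bases before to 50 bases after the start. The windows of 3 MHC class II genes of chromosome 17 that moved together from library to library are shown. H2-DMa of the same chromosome moved with them too and is not shown. Capitals mark matches to the Y box core GATTGG, the NF-Y motif, on either strand, and to the 14-base consensus of the X box, the RFX motif. The windows are chr17:34287774-34288073 on the minus strand for H2-Aa, chr17:34305617-34305916 on the plus strand for H2-Eb1 and chr17:34152941-34153240 on the plus strand for H2-DMb1.
H2-Aa: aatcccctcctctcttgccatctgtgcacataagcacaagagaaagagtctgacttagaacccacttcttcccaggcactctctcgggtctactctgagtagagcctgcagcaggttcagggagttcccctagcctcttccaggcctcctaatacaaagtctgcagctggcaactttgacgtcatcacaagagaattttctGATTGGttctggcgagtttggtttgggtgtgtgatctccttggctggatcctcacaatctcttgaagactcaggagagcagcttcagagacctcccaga
H2-Eb1: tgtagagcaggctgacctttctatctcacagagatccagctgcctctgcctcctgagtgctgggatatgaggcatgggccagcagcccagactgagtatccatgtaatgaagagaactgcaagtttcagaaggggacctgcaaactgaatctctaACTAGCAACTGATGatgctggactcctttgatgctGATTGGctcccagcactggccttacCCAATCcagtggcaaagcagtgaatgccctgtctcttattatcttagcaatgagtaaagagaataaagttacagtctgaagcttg
H2-DMb1: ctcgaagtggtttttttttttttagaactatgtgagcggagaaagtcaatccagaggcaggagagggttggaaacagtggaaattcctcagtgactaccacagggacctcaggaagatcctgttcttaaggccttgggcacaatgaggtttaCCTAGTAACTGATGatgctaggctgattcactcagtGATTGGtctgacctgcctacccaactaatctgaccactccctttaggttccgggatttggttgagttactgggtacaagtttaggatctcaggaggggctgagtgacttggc
A Y box core was found in each of them, at position -49 in H2-Aa, -60 and -35 in H2-Eb1 and -62 in H2-DMb1, counted from the start. The Y box core was present in 16.1% of all 32851 windows in the table and in 7 of the 23 matched genes. The other 4 were H2-DMa, Cd68, Cd163 and Lyz1. In H2-DMa 1 window held the core, at -199, and the other window held none. An X box stood upstream of the Y box at position -98 in H2-DMb1, where it matched the consensus exactly, as in 7 of all windows (0.0213%). It stood at -95 in H2-Eb1 with up to 2 mismatches allowed, a match found in 8.47% of all windows. Lyz1, outside the MHC class II genes, had such a match too, and H2-Aa and H2-DMa had none. The PU box core GAGGAA, bound by the myeloid factor PU.1 (Spi1), occurred in 28.3% of all windows and in 12 of the 23 matched genes, Cd207, Mrc1 and Hpgds among them.

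Between 17561294 and 20745246 counts fell in genes in the ko libraries and between 19532675 and 22659511 in the wt libraries. Arpc4 lay at 67.5, 65.6 and 64.5 CPM (depth-scaled read counts, here on TMM-scaled library sizes) in ko replicates 1 to 3, against 72.5, 82.5 and 73.1 CPM in wt replicates 1 to 3. Its log2 fold change of -0.21 had an edgeR adjusted p of 0.469, and since reads of remaining exons are counted, this level does not check the deletion. Both sexes were present. Xist, made from the inactive X chromosome, lay between 508 and 579 CPM in ko replicates 1 and 3 and wt replicate 3 and below 1 CPM in the others, where the Y-linked Ddx3y lay between 92.1 and 121 CPM. Female libraries were therefore 2 of 3 in ko and 1 of 3 in wt. Replicates 1 and 2 of each group carry a date in their titles and replicate 3 does not. The replicate numbers stand for the title marks I, II and Tryp, which the labels do not explain. The dated and undated libraries may therefore differ in more than their date. Both undated libraries were female. Of the dated ones ko replicate 1 was female, and ko replicate 2 and wt replicates 1 and 2 were male. Differences within the dated libraries are thus not matched for sex. The keratinocyte list summed to between 93652 and 159769 CPM in ko and between 87078 and 134694 CPM in wt.

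Read counts per gene were high for the antigen-presenting genes and low for most macrophage and granulocyte genes. Per kilobase of exon, mean levels over the 6 libraries were highest for Cd74, the invariant chain of MHC class II, at 158 CPM per kb and for the adhesion molecule Epcam at 108 CPM per kb. H2-Ab1 (47.2), H2-Eb1 (46.8), the ligand Il34 (46.4), H2-Aa (31.6), Mfge8 (24.2) and Cd207 (19.3) followed on the same scale. At the other end stood Mrc1 at 0.444, Hdc at 0.133, Csf3r at 0.0971 and Cd163 at 0.0463 CPM per kb. Lyz1 had 1 read in all, in wt replicate 3. A count of 0 allows up to 3 reads, or 0.149 to 0.177 CPM in the ko libraries, for counting error only. The Langerhans label was borne out by Cd207, with between 292 and 778 reads in the ko libraries and between 293 and 897 in the wt libraries.

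**Figure D1:**
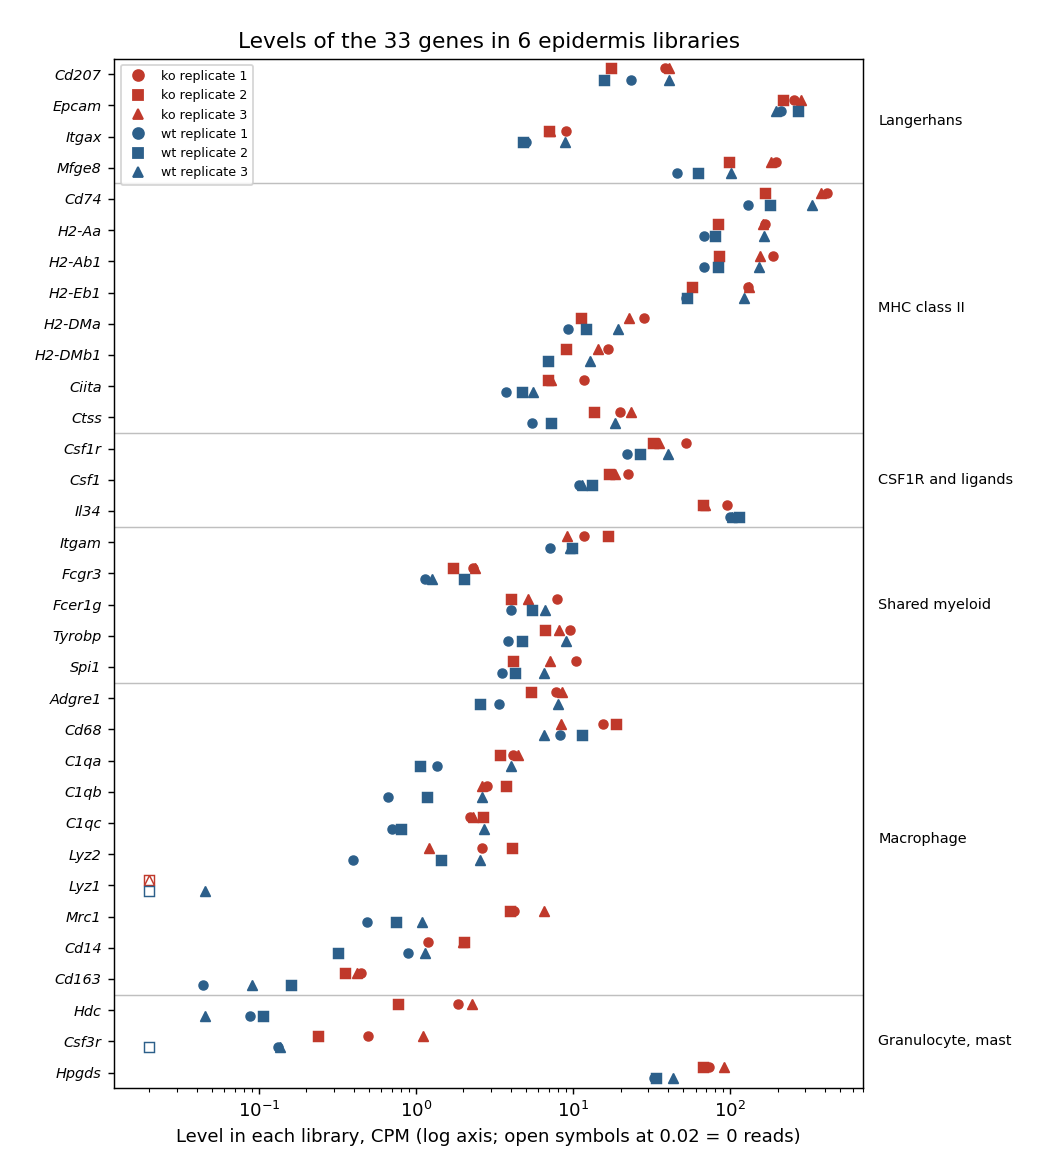
Level of each of the 33 genes in each library, in CPM on a log axis, with ko in red above wt in blue and the replicates as circles, squares and triangles. Cd74 spans 128 to 409.5 CPM, while Cd163 and Csf3r stay near or below 1 CPM and Hdc reaches 2.26 CPM.

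Genotypes were compared to ask which of these genes differed in ko. Of the 33 genes 30 had enough counts to be tested, and 1 of them, Hdc, rose in ko (adjusted p = 0.0459 by edgeR's quasi-likelihood test, with Benjamini-Hochberg adjustment over 13704 genes). Of all genes tested 0.219% rose, and 0% fell. DESeq2 called 5 genes higher, Csf1, Hdc, Hpgds, Mfge8 and Mrc1, and 0 lower, against 2.79% higher and 1.42% lower of all genes it tested. With collection as a factor edgeR called 4 higher, Csf1, Hdc, Hpgds and Mrc1, and 0 lower, against 3.2% and 1.98% of all genes. At an unadjusted p under 0.05, edgeR had 7 of the 30 higher and 1 lower, against 7.98 and 5.25% of all genes. The lowest ko library exceeded the highest wt library for 6 tested genes, Ciita, Csf1, Mrc1, Cd14, Hdc and Hpgds, as for 11.3% of all genes. The untested Cd163 and Csf3r did so too. The reverse held for Il34 alone, as for 8.03% of all genes. The median log2 fold change of the 30 tested genes was 0.61, against 0.02 over all genes, whose 10th to 90th percentiles ran from -0.44 to 0.56. Without the count filter and without Lyz1, 31 of 32 genes were above 0. The labels do not say whether each library is another animal. Each group held libraries of both sexes, so not all libraries of a group came from the same animal. The p-values here reflect only the scatter between libraries, which may be technical in part. In bulk RNA, more cells of a type and more RNA per cell cannot be told apart.

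Cd207 itself did not differ between the genotypes beyond the spread of the libraries. The gene (ENSMUSG00000034783, chromosome 6, 83671215 to 83677857, minus strand) encodes langerin, the lectin of Birbeck granules. Coordinates here and below are those of GRCm38. Cd207 lay at 38.2, 17.3 and 40.8 CPM in ko, against 23.3, 15.6 and 40.7 CPM in wt. The groups overlapped, and the log2 fold change was 0.27 (SE 0.43, edgeR adjusted p = 0.868). Epcam lay at 255, 217 and 279.8 CPM in ko, against 209, 271 and 195 CPM in wt (log2 fold change 0.16, SE 0.17). Itgax, the integrin CD11c of dendritic cells, lay at 9.05, 7.04 and 7.08 CPM in ko, against 5.02, 4.79 and 8.80 CPM in wt, again with overlap.

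Mfge8 stood apart from the other Langerhans genes. It (ENSMUSG00000030605, chromosome 7, 79133768 to 79149060, minus strand) encodes a secreted protein that bridges dying cells to phagocytes. Its levels were 194, 97.3 and 182 CPM in ko, against 45.6, 61.9 and 100.5 CPM in wt, with means of 158 ± 52.9 and 69.3 ± 28.2 CPM (SD, n = 3 each). ko replicate 2 lay just below wt replicate 3. A log2 fold change of 1.19 (SE 0.36) did not pass with edgeR (adjusted p = 0.234) and passed with DESeq2 (adjusted p = 0.0484). Within the dated libraries it was 1.44 and in the undated pair 0.86. Per read of Cd207, Mfge8 had 5.09, 5.64 and 4.47 reads in ko, against 1.95, 3.97 and 2.47 in wt. These ratios need no scaling, did not overlap and gave the smallest p that 3 against 3 libraries allow (exact permutation test, two-sided, p = 0.1). The ratio was chosen after its values were seen.

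The MHC class II genes had higher means in ko, but by less than the spread within the groups allowed to pass the test. Cd74 lay at 409.5, 167 and 377 CPM in ko, against 128, 179 and 331 CPM in wt (log2 fold change 0.58, SE 0.45, edgeR adjusted p = 0.675). H2-Aa, the alpha chain of I-A, lay at 165, 83.4 and 160.2 CPM in ko, against 67.9, 79.3 and 164 CPM in wt. Its partner H2-Ab1 lay at 185, 84.4 and 154 CPM in ko, against 67.5, 83.1 and 153 CPM in wt. In each gene ko replicate 2 was low and wt replicate 3 was high, so the groups overlapped. H2-Eb1, the beta chain of I-E, had 130, 57.4 and 132 CPM in ko, against 52.1, 53.2 and 122 CPM in wt. The peptide-exchange subunits H2-DMa and H2-DMb1 had log2 fold changes of 0.62 and 0.59. H2-DMa lay between 11.1 and 28.4 CPM in ko and between 9.24 and 19.3 CPM in wt, and H2-DMb1 between 9.05 and 16.7 CPM in ko and between 6.91 and 12.8 CPM in wt. All 8 genes were above 0, with a median of 0.58, and 0 were called by edgeR or by DESeq2, with 1 at an unadjusted p under 0.05. The median log2 difference of the 8 genes was 0.90 within the dated libraries, which were not matched for sex. It was 0.18 in the undated pair, where both libraries were female.

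That gene was Ciita, the coactivator of the others, at 11.8, 6.86 and 7.19 CPM in ko, against 3.74, 4.68 and 5.53 CPM in wt. Its groups did not overlap, with means of 8.61 ± 2.75 and 4.65 ± 0.895 CPM (SD, n = 3 each). A log2 fold change of 0.89 (SE 0.28) did not pass (edgeR adjusted p = 0.253). Ctss, the cathepsin that trims the invariant chain, lay at 19.9, 13.5 and 23.2 CPM in ko, against 5.46, 7.23 and 18.5 CPM in wt (log2 fold change 0.86, SE 0.47).

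The chains of I-A were counted in nearly equal numbers. H2-Aa had between 0.890 and 1.04 reads per read of H2-Ab1 in ko, against between 0.954 and 1.07 in wt. Per read of Cd207, H2-Aa had 4.32, 4.83 and 3.93 reads in ko, against 2.91, 5.09 and 4.03 in wt, and these ranges overlapped. The 5 genes of the H2 complex lie on chromosome 17 between 34119541 and 34316674 (GRCm38), and Cd74 lies apart from them on chromosome 18. The shared order of the libraries was thus not limited to neighbouring genes.

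The order of the libraries went with sex for most of these genes. In 7 of the 8 MHC class II genes and 3 of the 4 Langerhans genes, all 3 female libraries lay above all 3 male ones, as in 7.06% of all genes tested. The reverse order, found in 6.61% of all genes, held for 0 of the 33. The exceptions among the 12 were Ciita and Epcam, and Ciita was the 1 gene of the 12 in which all ko libraries lay above all wt libraries. Thus H2-Aa had 165 and 160.2 CPM in the female ko libraries, against 164 CPM in the female wt library. It had 83.4 CPM in the male ko library, against 67.9 and 79.3 CPM in the male wt libraries. Cd207 likewise had 38.2 and 40.8 CPM in the female ko libraries, against 40.7 CPM in the female wt library. The same order held for Csf1r, Adgre1, C1qa, Tyrobp and Spi1, which brought the count to 15 genes. The pan-leukocyte list showed it in 9 of 12 genes, the epidermal T cell list in 1 of 10 and the keratinocyte list in 0 of 7. Since 2 of the 3 female libraries are ko and 2 of the 3 are undated, sex, genotype and collection are partly confounded and cannot be fully told apart.

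**Figure D2:**
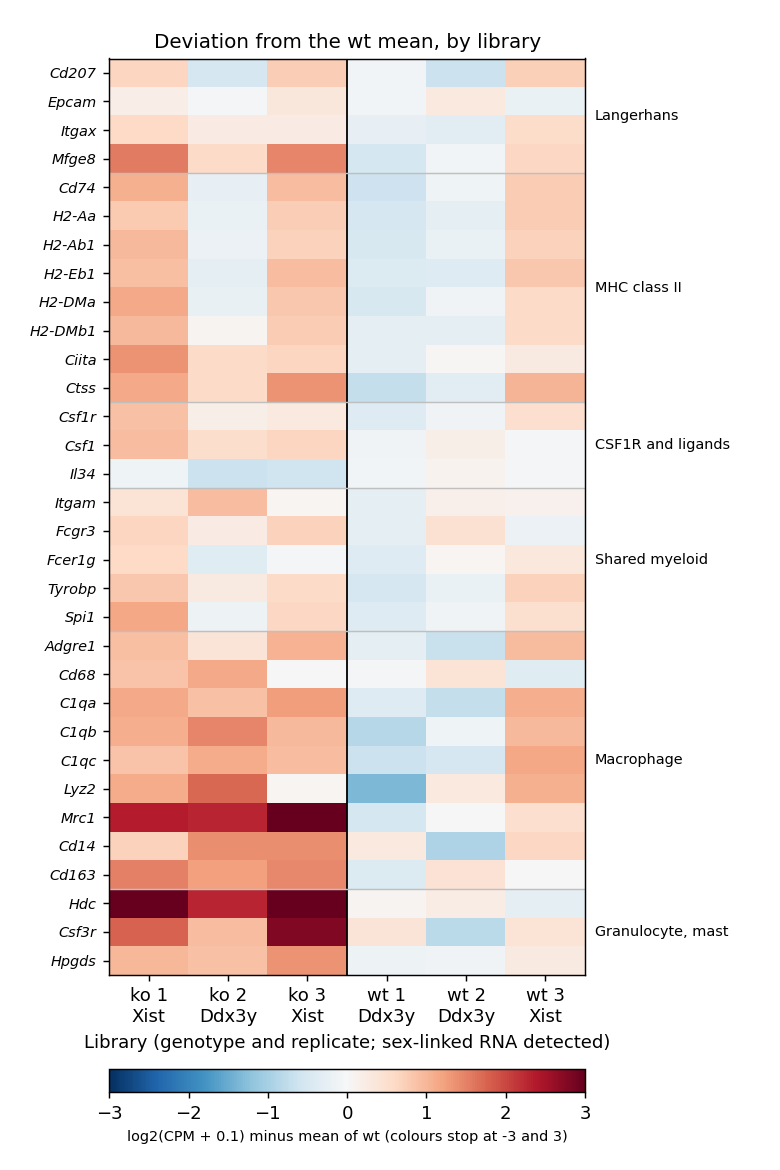
Difference of log2(CPM + 0.1) from the mean of the wt libraries for 32 genes (Lyz1 left out), with ko libraries left of wt and the sex-linked RNA of each library below it. In the MHC class II rows other than Ciita and Ctss, ko 1, ko 3 and wt 3 are red and ko 2 is near white. Mrc1, Hdc and Hpgds are red in all ko columns.

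With sex as a factor, a fit chosen after the data were seen, the MHC class II and Langerhans differences came close to 0. The log2 fold change of Cd74 was then 0.18 (SE 0.17), that of H2-Aa 0.08 (SE 0.12), that of H2-Eb1 0.11 (SE 0.10) and that of Cd207 -0.11 (SE 0.19), the last with its sign turned. The median of the 8 MHC class II genes was 0.22. Ciita (0.75, SE 0.27), Ctss (0.63, SE 0.24) and Mfge8 (0.88, SE 0.15) kept more of their difference, and 0 of them passed (edgeR adjusted p = 0.321, 0.364 and 0.0778). Hdc was again the single gene called (adjusted p = 0.0376), against 0.416% of all genes higher and 0.0365% lower.

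**Figure D3:**
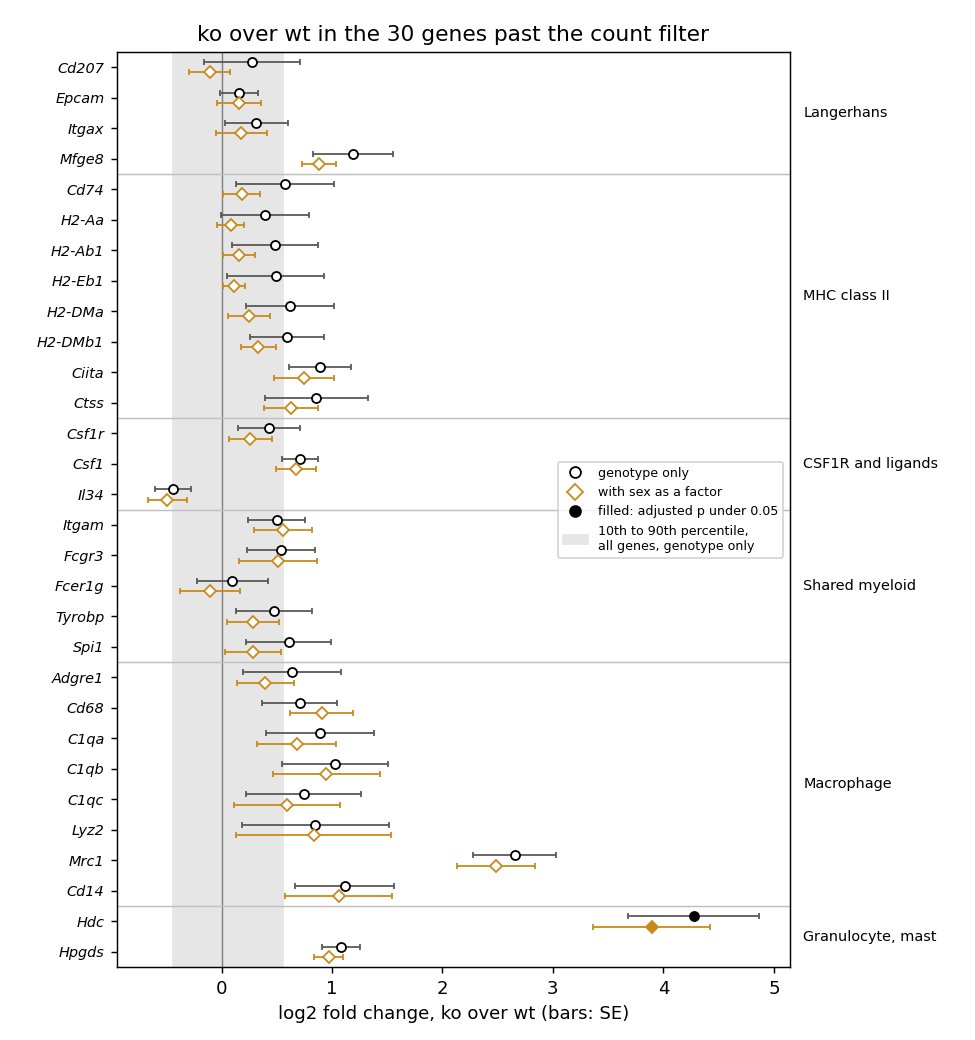
Log2 fold change of ko over wt with its SE for the 30 tested genes, from the fit with genotype only (black circles) and with sex as a factor (orange diamonds), filled where the adjusted p was under 0.05. The MHC class II diamonds lie left of their circles with shorter bars, while Mrc1, Hdc and Hpgds stay beyond the grey range of all genes.

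Within the CSF1R axis the receptor and its ligands did not move alike. Il34 (ENSMUSG00000031750, chromosome 8, 110741829 to 110805924, minus strand) lay at 95.4, 66.5 and 69.3 CPM in ko, against 98.7, 113 and 102 CPM in wt, with means of 77.0 ± 15.9 and 105 ± 7.48 CPM (SD, n = 3 each). All ko values lay below all wt values, ko replicate 1 only slightly. Its log2 fold change of -0.44 (SE 0.17) did not pass (edgeR adjusted p = 0.322). Csf1 (ENSMUSG00000014599, chromosome 3, 107741048 to 107760469, minus strand), the other ligand, lay at 22.3, 16.97 and 18.4 CPM in ko, against 10.9, 13.2 and 11.3 CPM in wt, without overlap. Its log2 fold change of 0.71 (SE 0.16) did not pass with edgeR (adjusted p = 0.136), passed with collection as a factor (adjusted p = 0.0480) and passed with DESeq2 (adjusted p = 0.0272). The dated and undated libraries gave 0.71 and 0.70 for Csf1 and -0.39 and -0.56 for Il34. Csf1r lay at 52.3, 32.1 and 35.3 CPM in ko, against 21.9, 26.5 and 40.4 CPM in wt, with overlap (log2 fold change 0.43, SE 0.28).

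The ratio of the ligands was also taken within each library. Il34 had 4.27, 3.92 and 3.77 reads per read of Csf1 in ko, against 9.08, 8.57 and 9.05 in wt. The ratio averaged 3.99 ± 0.257 in ko and 8.90 ± 0.285 in wt (SD, n = 3 each), a log2 difference of -1.16. The groups did not overlap, and the p of 0.1 is the smallest that 3 against 3 libraries allow (exact permutation test, two-sided). This pair was chosen after its values were seen, and since each ligand already separated the groups, in opposite directions, so must their ratio. Neither ligand was ordered by sex, and with sex as a factor their log2 fold changes were 0.67 for Csf1 and -0.49 for Il34.

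**Figure D4:**
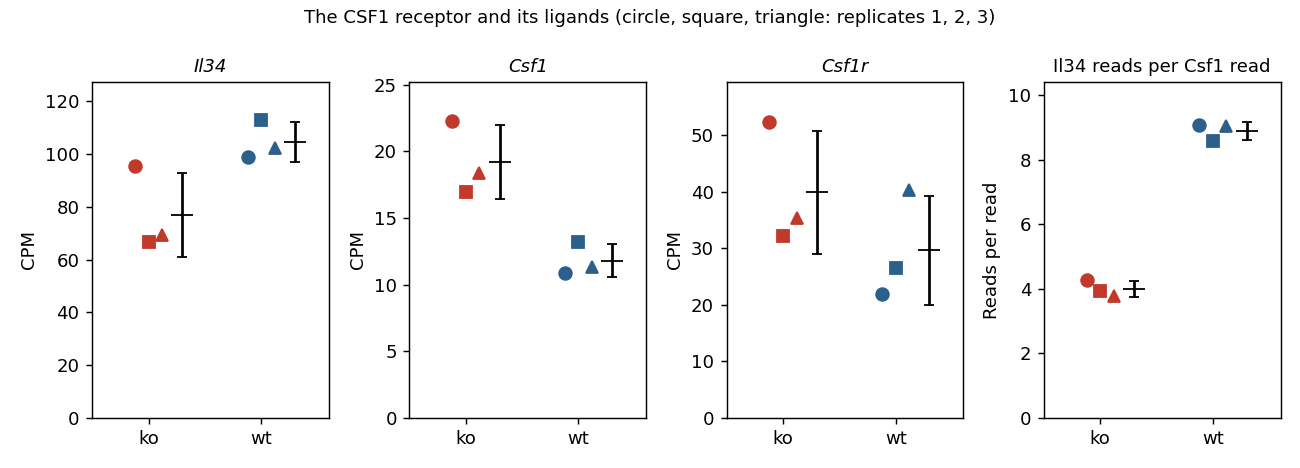
Levels of Il34, Csf1 and Csf1r in CPM, and reads of Il34 per read of Csf1, in each ko and wt library, with the mean and SD of 3 libraries beside the points. The ko ratios lie between 3.77 and 4.27 and the wt ratios between 8.57 and 9.08.

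Of the 5 genes shared by myeloid cells 0 passed the test or had groups that did not overlap. Itgam, the integrin CD11b, lay at 11.7, 16.6 and 9.13 CPM in ko, against 7.13, 9.79 and 9.52 CPM in wt. Tyrobp, the adaptor DAP12, lay at 9.59, 6.62 and 8.13 CPM in ko, against 3.83, 4.73 and 8.93 CPM in wt. Spi1, which encodes PU.1, lay at 10.4, 4.14 and 7.13 CPM in ko, against 3.52, 4.25 and 6.48 CPM in wt. In each the groups overlapped. The receptor Fcgr3 had a log2 fold change of 0.54 (SE 0.31) and its signalling chain Fcer1g one of 0.10 (SE 0.32). Fcer1g lay between 4.02 and 7.90 CPM in ko and between 4.01 and 6.57 CPM in wt, the smallest difference of the 5 genes.

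Most macrophage genes were low and their groups overlapped. Adgre1, the marker F4/80, lay at 7.80, 5.38 and 8.50 CPM in ko, against 3.35, 2.55 and 7.98 CPM in wt (log2 fold change 0.64, SE 0.44). Cd68, a lysosomal protein, lay at 15.4, 18.7 and 8.39 CPM in ko, against 8.19, 11.3 and 6.53 CPM in wt. The C1q subunits, neighbours on chromosome 4, shared a pattern in which wt replicate 3 reached the ko levels. C1qa had 4.13, 3.43 and 4.46 CPM in ko, against 1.36, 1.06 and 3.99 CPM in wt, and C1qb and C1qc had log2 fold changes of 1.03 and 0.74. Within the dated libraries C1qa, C1qb and C1qc had log2 differences of 1.64, 1.84 and 1.69, and in the undated pair 0.16, -0.004 and -0.24. Lyz2, the lysozyme of myeloid cells, had 2.63, 4.08 and 1.21 CPM in ko, against 0.396, 1.44 and 2.54 CPM in wt. It went opposite ways in the collections, with log2 differences of 1.87 dated and -1.07 undated. The undated pair is 1 library per group and has no test. Both of its libraries were female, whereas the dated libraries were not matched for sex.

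Mrc1 (ENSMUSG00000026712, chromosome 2, 14229392 to 14332057, plus strand), the mannose receptor CD206, had the largest difference among the macrophage genes. It had 84, 67 and 124 reads in ko, against 11, 14 and 24 reads in wt. These gave means of 4.88 ± 1.41 CPM in ko and 0.772 ± 0.303 CPM in wt (SD, n = 3 each), without overlap. The log2 fold change of 2.65 (SE 0.37) missed the threshold with edgeR (adjusted p = 0.0637). It passed with collection as a factor (adjusted p = 0.00631), without the count filter (adjusted p = 0.0328) and with DESeq2 (adjusted p = 3.06e-07). The dated libraries gave 2.73 and the undated pair 2.58. The female libraries gave 2.29 and the male ones 2.69. Per read of Adgre1, Mrc1 had 0.535, 0.736 and 0.765 reads in ko, against 0.145, 0.292 and 0.136 in wt, again with the smallest possible p of 0.1 (exact permutation test, two-sided) and chosen after the values were seen.

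The scavenger receptor Cd163 had 9, 6 and 8 reads in ko, against 1, 3 and 2 reads in wt, too few to be tested. Cd14, the co-receptor for lipopolysaccharide, had 1.19, 2.01 and 1.99 CPM in ko, against 0.880, 0.319 and 1.13 CPM in wt (log2 fold change 1.11, SE 0.45, edgeR adjusted p = 0.357). Both had groups that did not overlap. Of the 10 macrophage genes 8 were tested and 0 were called, with a median log2 fold change of 0.87. Without the count filter the median over the 9 other than Lyz1 was 0.89. With sex as a factor the tested median was also 0.87, but the sexes differed. Over the 9 genes the median log2 difference was 0.11 in the female libraries (2 ko and 1 wt) and 1.80 in the male ones (1 ko and 2 wt), and this contrast of the sexes was not tested.

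Markers of other cell types of the dermis also had higher summed levels in ko. The 7 endothelial genes summed to 20.5, 22.2 and 10.5 CPM in ko, against 4.71, 4.10 and 4.53 CPM in wt, and in all 7 the groups did not overlap. The 7 fibroblast genes summed to 723, 839 and 324 CPM in ko, against 123, 234 and 294 CPM in wt. Of these lists 0 genes passed with edgeR. At an unadjusted p under 0.05, 6 and 5 were higher in ko, against 7.98% of all genes tested. The endothelial genes Cdh5, Pecam1, Tie1 and Kdr had log2 fold changes of 3.04, 1.75, 2.62 and 2.72. Cdh5, Tie1 and Kdr had at most 11 reads in any wt library and passed the count filter only through the ko libraries. Among fibroblast genes the log2 fold changes were 2.12 for Pdgfra, 2.34 for Col3a1, 1.91 for Lum, 2.01 for Col1a1 and 0.51 for Vim. Within ko, replicate 3 had the lowest level of all 7 endothelial genes and of 5 fibroblast genes. It also had the lowest level of Stab1 and of 3 of the 10 macrophage genes, Cd68, C1qb and Lyz2. It had the highest level of Mrc1. Mrc1 and Stab1 are also made by some endothelial cells. The part of dermal cells in the macrophage results was not tested.

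Hdc was the gene that rose. It (ENSMUSG00000027360, chromosome 2, 126593667 to 126619299, minus strand) encodes histidine decarboxylase, which makes histamine in mast cells, basophils and some neutrophils. It had 37, 13 and 43 reads in ko, against 2, 2 and 1 reads in wt, or 1.62 ± 0.767 and 0.080 ± 0.031 CPM (SD, n = 3 each). Every ko library was above every wt library. The log2 fold change was 4.27 (SE 0.59, edgeR adjusted p = 0.0459), 3.75 in the dated libraries and 5.64 in the undated pair. Hdc passed the count filter only through the ko libraries, and its wt level rests on 5 reads. The call was lost with total-count scaling (adjusted p = 0.0580), with limma-voom (adjusted p = 0.0852), with edgeR's older fit (adjusted p = 0.0703), in the dated libraries (adjusted p = 0.0609) and when any library other than ko replicate 3 was left out (adjusted p between 0.0516 and 0.378).

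Hpgds (ENSMUSG00000029919, chromosome 6, 65117293 to 65144908, minus strand), the prostaglandin D synthase of blood cells, was much more abundant. It lay at 72.7, 66.8 and 91.5 CPM in ko, against 32.4, 33.5 and 43.4 CPM in wt, with means of 77.0 ± 12.9 and 36.4 ± 6.05 CPM (SD, n = 3 each). All ko libraries were above all wt libraries. The log2 fold change of 1.08 (SE 0.18) missed the threshold with edgeR (adjusted p = 0.0793). It passed with collection as a factor (adjusted p = 0.00421) and with DESeq2 (adjusted p = 0.000107). The dated libraries and the undated pair each gave 1.08, and with sex as a factor the value was 0.97 (SE 0.13). The wt mean of Hpgds lay far above those of the mast cell protease Cma1 (0.318 CPM) and of Hdc (0.080 CPM). Whether the reads of Hpgds came from mast cells or granulocytes was not tested. Csf3r, the receptor for the granulocyte growth factor G-CSF, had 10, 4 and 21 reads in ko, against 3, 0 and 3 reads in wt, too few to be tested.

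Markers of single granulocyte types gave few reads. The basophil protease Mcpt8 had 23, 3 and 29 reads in ko, against 0, 1 and 0 reads in wt. The connective-tissue mast cell protease Cma1 had 17, 40 and 4 reads in ko, against 0, 6 and 14 reads in wt. Ccr3, a chemokine receptor of eosinophils and basophils, had 2, 15 and 30 reads in ko, against 0 reads in each wt library. Over the ko libraries the order of Hdc was that of Mcpt8 and neither that of Cma1 nor that of Ccr3, a likeness looked for with the values known. Csf3r, Hpgds, Mrc1 and Cd207 had that order too. Replicate 2 was the lowest ko library in 26 of the 33 genes, against 28.4% of all genes tested. The cell source of Hdc was not tested. The whole list of 18 mast cell, basophil and eosinophil genes had 3 tested and 0 called, and summed to between 16.4 and 21.2 CPM in ko and between 23.9 and 30.3 CPM in wt. Mrgprb2, listed as a mast cell receptor, set that order, with 10.3, 5.91 and 3.25 CPM in ko, against 19.9, 25.4 and 19.2 CPM in wt (log2 fold change -1.72, edgeR adjusted p = 0.134). Its wt mean of 21.5 CPM lay far above that of Cma1 (0.318 CPM). Whether its reads came from mast cells was not tested. Without Mrgprb2 the list summed to between 10.5 and 15.3 CPM in ko and between 4.01 and 5.44 CPM in wt. Of its other 17 genes 6 lay wholly higher in ko, as did 11.3% of all genes tested. Of these 6 only Kit was tested, and the others had too few reads. Kit, the stem cell factor receptor, was the other tested gene besides Cma1, with log2 fold changes of 0.88 and 1.80. Kit lay at 5.37, 6.09 and 8.76 CPM in ko, against 3.65, 3.67 and 3.63 CPM in wt. It thus made up most of the wt sums without Mrgprb2 and a large part of the ko sums. Whether the reads of Kit came from mast cells was not tested. Fcer1a and Epx of the list had 0 reads in every library. Of the 19 neutrophil genes 5 were tested, since the others had too few reads, and 3 rose, against 0.219% of all genes tested. These were Cxcr2, S100a8 and S100a9, of which keratinocytes also make the S100 proteins. The decoy receptor Il1r2 had a log2 fold change of -0.58 and did not pass. The neutrophil surface marker Ly6g and the protease Mmp8 had 0 reads in every library. Cxcr2 had 578 reads over the ko libraries and 18 over the wt libraries. Like Hdc, it passed the count filter only through the ko libraries. Whether the reads of Cxcr2 came from neutrophils was not tested.

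Langerhans and MHC class II genes were set against macrophage genes within each library by the difference of their mean log2 CPM (prior count 2). It was 4.80, 3.79 and 4.72 in ko, against 4.95, 4.89 and 4.86 in wt, a difference of -0.46 between the group means. The ko libraries lay below the wt libraries, replicates 1 and 3 by little and replicate 2 by much. With a prior count of 5 ko replicate 1 (4.59) lay above wt replicates 1 and 2 (4.56 each), so that the groups overlapped. Set against the 3 granulocyte and mast cell genes, the value was 3.82, 3.62 and 3.15 in ko and 4.45, 4.99 and 5.42 in wt, a difference of -1.42. That difference was -1.94 with a prior count of 0.5 and -0.99 with a prior count of 5. Hpgds had most of the reads of these 3 genes, and their cell source was not tested. The median log2 fold change was 0.53 for the 12 Langerhans and MHC class II genes. For the macrophage and granulocyte genes it was 0.96 over the 10 tested, which include Hdc, and 1.05 over 12 without the count filter. With sex as a factor the tested medians were 0.18 and 0.93. For the macrophage and granulocyte genes the median was 0.68 in the female libraries and 1.81 in the male ones. These are descriptions without a test.

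Further genes of the same pathways were read from lists chosen by function. Of 24 Langerhans and dendritic cell genes 17 were tested and 1 rose, against 0.219% of all genes tested. It was Sirpa, the CD47 receptor of myeloid cells, and the cell source of its reads was not tested. Sirpa lay at 73.5, 58.3 and 67.8 CPM in ko, against 30.1, 28.9 and 34.9 CPM in wt (log2 fold change 1.09, SE 0.14, edgeR adjusted p = 0.0461). Zbtb46, a factor of dendritic cells, had a log2 fold change of 1.08, and the TGF-beta receptor Tgfbr2, on which Langerhans cells depend, one of 0.80. The values were 0.39 for Bmp7 and 0.41 for the abundant Cd24a. None of these passed, and the median of the list was 0.69. Of 17 further MHC class II pathway genes 14 were tested and 0 called. Among them the cathepsin Ctsl had a log2 fold change of 0.74, H2-DMb2 one of 0.94 and the thiol reductase Ifi30 one of -0.35. The ubiquitin ligase March1, which removes MHC class II from the surface, had 0.80 and the cathepsin Ctsb 0.09, and the list had a median of 0.08.

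Of 35 further macrophage and monocyte genes 19 were tested and 0 called. The scavenger receptor Stab1 had the largest of the named differences (log2 fold change 2.80, SE 0.48, edgeR adjusted p = 0.0850). The receptors Axl and Fcgr2b had log2 fold changes of 0.80 and 1.79, and the Axl ligand Gas6 one of -0.10. Of 13 colony-stimulating factor receptors and chemokines 9 were tested and 1 rose, Tslp, against 0.219% of all genes tested. The alarmin Il33 had a log2 fold change of 3.06 (SE 0.65, edgeR adjusted p = 0.115), and the beta chains Csf2rb and Csf2rb2, shared by receptors of GM-CSF, IL-3 and IL-5, had log2 fold changes of 1.64 and 1.27 without passing. All 12 pan-leukocyte genes were above 0 with a median of 0.60, and 0 were called, Vav1 (0.69), Lcp1 (0.83), Cd53 (0.64) and Itgb2 (0.83) having the smallest p. The 10 epidermal T cell genes had a median of -0.06 and 0 calls, with 0.66 for Skint1, a keratinocyte gene that selects these cells, 0.43 for Lck, 0.55 for Thy1 and -0.40 for Cd3g. Of the 7 keratinocyte genes 0 were called, with log2 fold changes between -0.63 for Lor and 0.39 for Krt1 and with Krt5, Krt14, Krt10, Dsp and Cdh1 between them.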

How the data were processed

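Messenger RNA of mouse epidermis was sequenced in 3 ko and 3 wt libraries. The deposited values are raw counts of reads per Ensembl gene. TopHat2 2.0.12, Bowtie 1.1, HTSeq and mm10 are named in the submitters' processing notes, and stranded TruSeq libraries of 51 bp single-end reads per the labels' protocols. The strand option and the annotation were not given in the sources used here, so reads of overlapping and antisense genes cannot be told apart. Reads aligned to more than 1 place (32.4 to 40.9% of all) stayed out. Of 51-base windows, 18 of the 33 genes share none with another gene and 9 share over 5%, among them H2-DMb1 with H2-DMb2, Lyz1 with Lyz2 and Csf1r with the overlapping Hmgxb3, whose counts are uncertain. Symbols and coordinates came from GENCODE M21 (40254 of 41214 identifiers matched).

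Groups came from the genotype label and replicate numbers from marks in the titles. All genes were fitted with edgeR 4.0.16 in R 4.3.3 (filterByExpr, TMM, robust glmQLFit, glmQLFTest, genotype only), with Benjamini-Hochberg adjustment over 13704 genes and a threshold of 0.05. SE is the size of the fold change in log2 units divided by the root of F. Alternatives were DESeq2 1.42.0, limma-voom (limma 3.58.1), other scalings and filters, a replicate block, a collection factor, the dated libraries alone, leaving out each library and, added after seeing the data, sex from Xist and Ddx3y. Replicates differed by more than sampling noise (chi-square over its degrees of freedom at least 24.4). The genes, lists and tests were chosen with earlier results of these data known. All 33 genes are named, and of each list up to 4 tested genes with the smallest p and any of at least 100 CPM. Mcpt8, Ccr3, Ly6g, Mmp8, Fcer1a and Epx were named after their values were seen. Of the macrophage and monocyte list 1 gene is not reported here.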

Additional observations from a re-analysis of the deposited data

How the results depend on the processing

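Over all genes the fit with genotype only called 30. Calls numbered 57 without the count filter, 18 with at least 1 CPM in 3 libraries, 648 with DESeq2, 0 with limma-voom (1748 at an unadjusted p under 0.05), 18 with the older quasi-likelihood fit, 709 with collection as a factor, 227 in the dated libraries and 62 with sex as a factor. Of the 33 genes 1 was called, against 0 with total counts, 2 without the filter, 0 with 1 CPM in 3 libraries (Hdc was not tested), 5 with DESeq2, 0 with limma-voom (at an unadjusted p under 0.05, 9 above wt and 1 below), 0 with the older fit, 4 with collection as a factor and 2 in the dated libraries. Leaving out each library gave 0 to 64 calls over all genes and 0 to 1 among the 33. There were 0 without ko replicate 2 or any wt replicate (1229 to 2350 at an unadjusted p under 0.05), 29 without ko replicate 1 and 64 without ko replicate 3. Without wt replicate 3, the female wt library, 20 of the 30 tested genes were higher at an unadjusted p under 0.05, against 7 with all libraries. Over all genes tested, 2350 of 13996 were at that p in either direction, against 1814 of 13704 with all libraries. The cause was not tested. With a replicate block there were 354 calls and 3 among the 33 (Hdc, Hpgds, Mrc1). Deviations from the group means correlated at -0.19, 0.47 and 0.67 between libraries of the same number, so the numbers were not taken to pair the samples.

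Median log2 fold changes by role in the dated libraries were 0.59 for Langerhans, 0.87 for MHC class II, 0.68 for CSF1R axis, 0.71 for shared myeloid and 1.63 for macrophage genes, and 1.08 for granulocyte and mast cell genes with 1 CPM in 3 libraries, which leaves Hpgds alone. Leaving out 1 library at a time gave 0.15 to 0.68 for the Langerhans genes, 0.32 (without wt replicate 1) to 0.98 (without wt replicate 3) for MHC class II, 0.32 to 0.60 for shared myeloid genes, 0.19 to 0.66 for the CSF1R axis and 0.62 to 1.59 for macrophage genes. Signs turned for Epcam in the dated libraries (-0.0554), for Cd207 (-0.11) and Fcer1g (-0.11) with sex as a factor, and for Fcer1g within the range -0.22 to 0.29 when 1 library was left out. Of the values of single genes under the alternatives, 483 kept direction and side of the threshold, 12 passed it newly, 9 no longer passed and 5 turned sign. Genes of under 1 CPM are limited by counting error. Protein sequences were not used here.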
